A study of Oryctolagus cuniculus with 24 samples.

Results

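The 4 genes HBEGF, LMTK2, ZBTB10 and EVA1B were followed in rabbit peripheral blood mononuclear cells (PBMCs), out of 28885 genes (9569 with a symbol) on a rabbit expression array. They were chosen by their measured change after lipopolysaccharide (LPS) in these arrays, a rise at the early time for LMTK2, ZBTB10 and EVA1B and at the late time for HBEGF, so their LPS changes are given below as a description with no test. PBMCs came from 4 grown New Zealand White does, called rabbits 1, 2, 4 and 5 here. They were isolated from blood on a ficoll density gradient and cultured as the whole mixed population of cells. From each rabbit, cells were mock-stimulated with buffer, stimulated with LPS at 1 µg/mL, or stimulated with phorbol 12-myristate 13-acetate (PMA) at 10 ng/mL together with ionomycin at 1 µg/mL, each for 4 h (T4) or 24 h (T24). This gave 6 groups of 4 cultures and 24 one-colour Agilent arrays, 1 culture of each rabbit per group.

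HBEGF encodes a growth factor of the EGF family that is made as a membrane protein, is cut free by metalloproteinases of the ADAM family and binds the receptors EGFR and ERBB4; monocytes and macrophages are known sources. LMTK2 is a membrane-anchored serine/threonine kinase that acts in endosome traffic and binds protein phosphatase inhibitor PPP1R2 and the CDK5 activator CDK5R1, and ZBTB10 is a zinc finger repressor that competes with Sp transcription factors for GC-rich DNA. EVA1B is a small transmembrane protein of the EVA1 family whose function is little described. LPS is a bacterial ligand of TLR4 on myeloid cells, whereas PMA and ionomycin bypass surface receptors by activating protein kinase C and raising intracellular calcium, which drives T cells strongly.

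The array read the 4 genes with 10 probes of 60 bases, and 5 of the 10 belonged to HBEGF. The probe sequences are printed because the number of independent probes sets how well each gene was measured. HBEGF probes 2 to 5 were tiled 1 base apart, so they shared 57 bases, shown in capitals in probes 2 and 5, the ends of the tile, and they do not count as independent measurements.
HBEGF probe 1: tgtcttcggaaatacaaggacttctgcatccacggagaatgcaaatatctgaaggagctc
HBEGF probe 2: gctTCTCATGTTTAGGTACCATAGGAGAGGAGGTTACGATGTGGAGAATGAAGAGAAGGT
HBEGF probe 5: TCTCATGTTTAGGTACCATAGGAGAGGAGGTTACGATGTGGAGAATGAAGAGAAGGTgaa
LMTK2 probe: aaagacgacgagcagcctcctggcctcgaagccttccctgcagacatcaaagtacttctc
ZBTB10 probe 1: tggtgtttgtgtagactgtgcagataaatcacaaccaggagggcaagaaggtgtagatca
ZBTB10 probe 3: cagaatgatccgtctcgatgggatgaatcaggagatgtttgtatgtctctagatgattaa
EVA1B probe: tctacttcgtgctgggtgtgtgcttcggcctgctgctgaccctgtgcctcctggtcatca
The array files place HBEGF probe 1 at chr3:22492039-22492098 on the minus strand of the rabbit build oryCun2, 60 bases without a gap. HBEGF probe 2 was placed at chr3:22486212-22487035 on the same strand, a span of 824 bases for 60 bases of probe, so its match to the genome was not continuous. The ZBTB10 probes lay on the plus strand of the same chromosome, probe 1 at chr3:96208880-96208939, probe 2 at chr3:96208956-96209015 and probe 3 at chr3:96209031-96209090, without overlap. The files give no position for the LMTK2 and EVA1B probes, and exons, introns and UTRs of oryCun2 were not analysed here. Probe GC content was 45% for HBEGF probe 1, 55% for LMTK2 and 60% for EVA1B, against a median of 43.3% over all genes. LMTK2 and EVA1B therefore each rested on 1 probe, ZBTB10 on 3 separate stretches and HBEGF on 2.

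A level is the log2 of a probe's median spot signal minus the log2 median of its array, averaged over a gene's probes. A level of 0 is the median spot, and each unit is a factor of 2. Local background was not subtracted, so changes of genes near background are understated. In cultured bulk cells, fewer cells of a type and less RNA per cell cannot be told apart. Array medians ranged from 59.0 to 102.5 units of brightness, and 51.4% to 62.3% of spots were well above background on each array. LMTK2, ZBTB10 and EVA1B were well above background on all 24 arrays, and HBEGF on 22, the exceptions being the mock cultures of rabbits 4 and 5 at T24. Markers of the labelled cells were present: at T4 in mock cultures, 11 to 13 of 13 measured monocyte markers, 6 of 6 B cell markers and 8 of 10 T cell markers were well above background. CD8A and CD5 were among those present, while CD4 and CD28 were well above background on 0 of 4 mock arrays at T4. Markers of other blood cells were present too, with 5 of 6 platelet markers, 3 to 4 of 5 neutrophil markers and 2 to 4 of 5 erythrocyte markers well above background there.

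**Figure D1:**
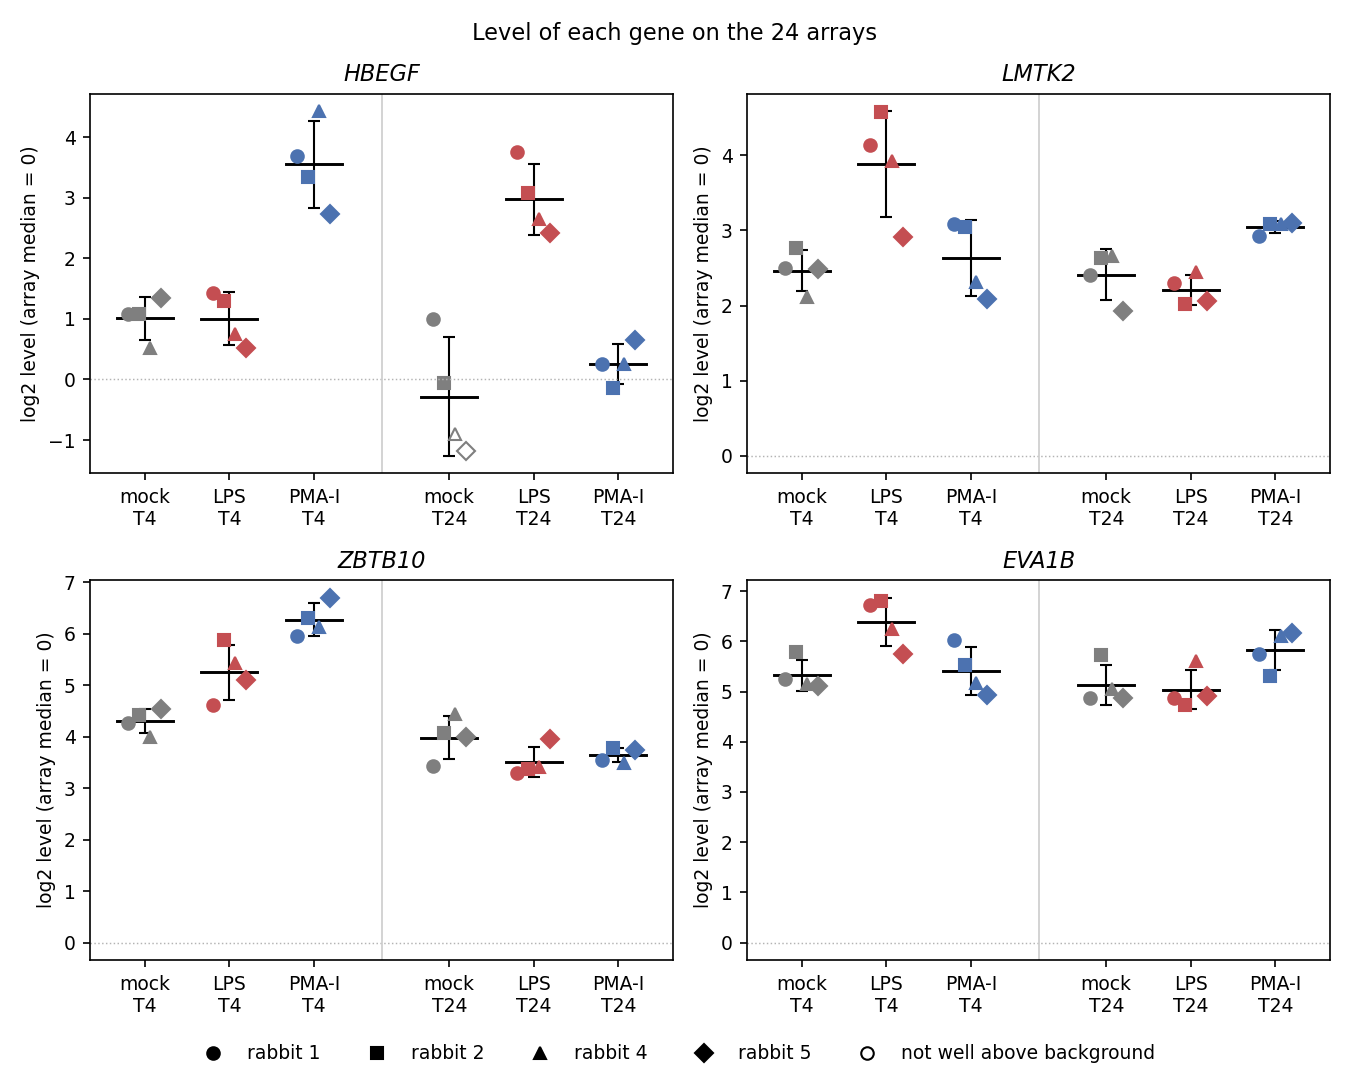
Levels of HBEGF, LMTK2, ZBTB10 and EVA1B on the 24 arrays (y axis, log2 units with the array median at 0; x axis, stimulation and time, PMA-I being PMA-Ionomycin). Each point is a rabbit, open points were not well above background, horizontal bars are means of 4 rabbits and whiskers are 1 SD; HBEGF is high in PMA-Ionomycin cultures at T4 (mean 3.55) and LPS cultures at T24 (mean 2.97).

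HBEGF was high in exactly those cultures, PMA-Ionomycin at T4 and LPS at T24, and low in the other 4 groups. In mock cultures at T4 its level was 1.08, 1.09, 0.52 and 1.35 in rabbits 1, 2, 4 and 5. After PMA-Ionomycin at T4 it was 3.69, 3.35, 4.44 and 2.72 in the same order. Every stimulated culture lay above every mock culture. The mean rose from 1.01 ± 0.35 to 3.55 ± 0.71 (SD, n = 4), a FC of 5.82 (log2 2.54 ± 0.39 SE, adjusted p = 2.84e-05, limma), and the 4 within-rabbit differences ran from 1.37 in rabbit 5 to 3.92 in rabbit 4. Within the 3 array slides, each holding 1 or 2 arrays of a group and not always of the same rabbits, the difference was 2.54, 1.93 and 2.60.

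By T24 the PMA-Ionomycin level of HBEGF was back near the array median, at 0.26, -0.15, 0.26 and 0.65. Mock cultures at T24 gave 1.00, -0.07, -0.89 and -1.17. These groups overlapped, and PMA-Ionomycin cultures were higher in 2 of 4 rabbits (log2 FC 0.54 ± 0.39 SE, adjusted p = 0.362). This difference was 0.97 without rabbit 1, 0.34 without rabbit 4, 0.11 without rabbit 5 and 1.32 with the processed signal, and it was not called in any of these. The mock cultures at T24 also entered the change that chose HBEGF, so this test is not independent of that choice, and the difference between the PMA-Ionomycin changes at T24 and T4 is given as a description. Its mean was -2.0 on the log2 scale, and it was -1.498 with the background-subtracted processed signal. Rabbits 1, 2 and 4 had the smaller change at T24, and rabbit 5 had the larger one there (1.83 against 1.37 at T4). The changes of rabbits 4 and 5 at T24, 1.16 and 1.83, stand against mock cultures that were not well above background.

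Mock cultures had a lower mean HBEGF level at T24 than at T4, and since the mock level at T24 is part of what chose the gene, this is given as a description. The differences were -0.08 and -1.15 in rabbits 1 and 2, whose mock cultures were well above background at both times. They were -1.41 and -2.53 in rabbits 4 and 5, whose mock cultures at T24 were not well above background. The mean was -1.29 ± 1.01 (SD, n = 4), the ranges of the groups overlapped, the processed signal gave -2.87, and within slides the difference was -2.38, 0.20 and -1.15. The 13 measured monocyte markers went the other way over the same interval: 9 rose and 0 fell, and their summed signal was 233 to 462 array medians in mock cultures at T4 and 590 to 1236 at T24. Platelet markers moved the same way as HBEGF: 5 of 6 fell and 0 rose, with summed signals of 19.3 to 47.7 at T4 and 4.21 to 5.78 at T24. The part of either list in the HBEGF result was not tested.

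With LPS, HBEGF overlapped the mock cultures at T4 and was higher at T24, the change for which the gene was picked. At T4 its level with LPS was 1.43, 1.30, 0.75 and 0.52. The within-rabbit differences from mock were 0.35, 0.21 and 0.23 in rabbits 1, 2 and 4 and -0.83 in rabbit 5, with a mean of -0.01. At T24 the LPS level was 3.76, 3.08, 2.64 and 2.42, above every mock culture. The differences were 2.75, 3.15, 3.54 and 3.59, a mean of 3.26 ± 0.39 (SD, n = 4) or a FC of 9.56. Of the 4 mock cultures, 2 were not well above background, and with the processed signal, which differs in both background and scaling, the difference was 5.05 in log2 units. Summed monocyte marker signal at T24 was 513 to 978 array medians with LPS and 590 to 1236 in mock cultures, which overlap. Of the 13 monocyte markers 1 rose and 2 fell (2 rose and 4 fell with the rabbit as a block), and of 5 measured neutrophil markers 0 rose and 2 fell. Their part in the HBEGF change was not tested. Within slides the differences were 4.79, 1.75 and 2.71.

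In the order of mean levels, PMA-Ionomycin at T4 (3.55) and LPS at T24 (2.97) overlapped each other and stood clear of the rest, with a gap of 1.97 to mock cultures at T4. The high place of LPS at T24 is part of what chose HBEGF. The other 4 groups overlapped neighbour by neighbour. The 5 probes gave the same picture: single-probe log2 FC after PMA-Ionomycin at T4 ran from 2.39 to 2.70, and after LPS at T24 from 2.95 to 3.54. Probe 1, which shares no sequence with the tile, gave 2.51 and 2.95.

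**Figure D2:**
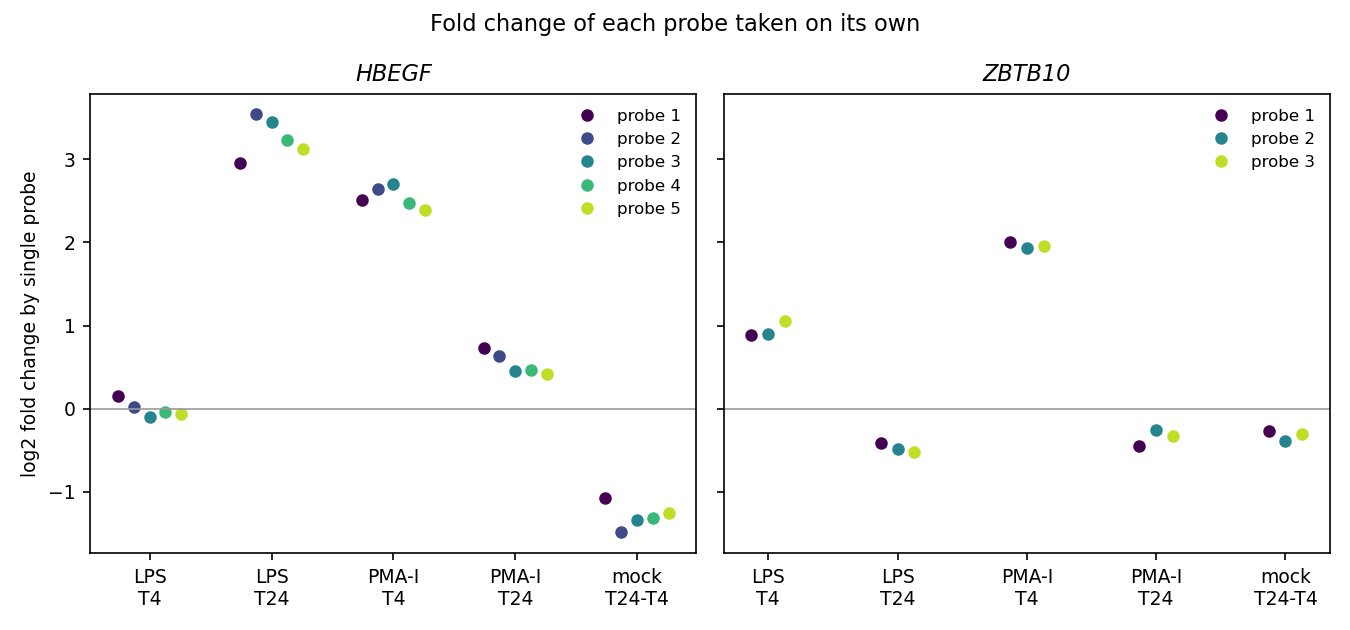
Log2 fold change (y axis) of each HBEGF and ZBTB10 probe taken on its own, for the 5 comparisons on the x axis (stimulated against mock, or mock T24 against mock T4). For HBEGF the 5 probes lie between 2.39 and 2.70 after PMA-Ionomycin at T4; for ZBTB10 the 3 probes lie between 1.93 and 2.01.

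ZBTB10 answered both stimuli at T4, and its level at T24 was no longer raised by either. Mock cultures at T4 gave 4.26, 4.43, 3.99 and 4.54. PMA-Ionomycin cultures gave 5.95, 6.31, 6.12 and 6.70. The groups stood apart, and the 4 within-rabbit differences (1.69, 1.88, 2.13 and 2.16) were close to each other. The FC was 3.90 (log2 1.96 ± 0.23 SE, adjusted p = 7.68e-07, limma), and single probes gave 1.93 to 2.01. The mock cultures at T4 also entered the LPS change that chose ZBTB10, LMTK2 and EVA1B. Tests that use these cultures, here and below, are not independent of that choice. Within slides the difference was 1.67, 2.58 and 1.52.

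At T24 the PMA-Ionomycin level of ZBTB10 was 3.56, 3.78, 3.49 and 3.74. The mock level was 3.43, 4.07, 4.44 and 3.99. The groups overlapped and the difference was -0.34 ± 0.23 (SE, adjusted p = 0.319), but it passed the threshold after quantile normalization (-0.78, adjusted p = 0.013). The difference between the PMA-Ionomycin changes at T24 and T4 also uses the mock cultures at T4, so it is given as a description. Its mean was -2.31 on the log2 scale, and the change was lower at T24 in 4 of 4 rabbits. In mock cultures ZBTB10 differed between T24 and T4 by -0.32 ± 0.23 (SE, adjusted p = 0.462).

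LPS cultures at T4 had ZBTB10 levels of 4.61, 5.87, 5.43 and 5.11, all above the highest mock culture. The differences from mock were 0.35, 1.44, 1.44 and 0.56, with a mean of 0.95 ± 0.58 (SD, n = 4), so rabbits 2 and 4 moved most. Within slides the difference was 1.33, 1.31 and 0.43. At T24 the LPS level was 3.30, 3.38, 3.41 and 3.95, below mock in 4 of 4 rabbits by 0.04 to 1.03 log2 units. In the order of means, PMA-Ionomycin at T4 (6.27), LPS at T4 (5.25) and mock at T4 (4.30) did not overlap each other, while the 3 groups at T24 overlapped. ZBTB10 was picked for its rise with LPS at T4, so the gap between LPS and mock there is part of what chose it. How many of all genes had groups without overlap was not counted.

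LMTK2 had its highest mean with LPS at T4, the rise for which it was picked. Mock cultures at T4 gave 2.50, 2.77, 2.11 and 2.49. LPS cultures at T4 gave 4.13, 4.58, 3.92 and 2.91. All 4 LPS cultures were above all mock cultures, but rabbit 5 moved by 0.42 against 1.63, 1.81 and 1.82 in rabbits 1, 2 and 4, for a mean of 1.42 ± 0.67 (SD, n = 4) and a FC of 2.68. Within slides the difference was 2.09, 1.62 and 0.75. At T24 the LPS level was 2.30, 2.02, 2.45 and 2.06 and overlapped the mock level of 2.41, 2.64, 2.66 and 1.93, with a mean difference of -0.20 ± 0.31 (SD, n = 4).

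PMA-Ionomycin did not change LMTK2 past the threshold at either time. At T4 its level was 3.09, 3.05, 2.32 and 2.08, overlapping mock (log2 FC 0.17 ± 0.27 SE, adjusted p = 0.81). At T24 it was 2.93, 3.09, 3.08 and 3.1, above all mock cultures and higher in 4 of 4 rabbits (log2 FC 0.64 ± 0.27 SE, adjusted p = 0.0725). With the rabbit as a block, which pairs cultures of the same animal, adjusted p was 0.0289, and after quantile normalization the difference was 0.32 (adjusted p = 0.463). Mock cultures of T24 and T4 differed by -0.06 ± 0.27 (SE, adjusted p = 0.925), and the PMA-Ionomycin change differed between the times by 0.47 ± 0.38 (SE, adjusted p = 0.486).

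EVA1B, like LMTK2, had its highest mean with LPS at T4, the rise for which it was picked. In mock cultures at T4 it was 5.24, 5.78, 5.14 and 5.12. With LPS at T4 it was 6.72, 6.80, 6.25 and 5.75. The ranges touched only through rabbit 2's mock culture and rabbit 5's LPS culture, and the differences were 1.48, 1.02, 1.11 and 0.63, a mean of 1.06 ± 0.35 (SD, n = 4). Rabbit 5 moved least, as for LMTK2. Within slides the difference was 1.68, 1.06 and 0.45, and with the slide as a block it was 0.91.

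At T24 the EVA1B level was 4.88, 4.74, 5.62 and 4.91 with LPS and 4.87, 5.72, 5.04 and 4.88 in mock cultures, a mean difference of -0.09 ± 0.65 (SD, n = 4). PMA-Ionomycin gave 6.03, 5.53, 5.16 and 4.92 at T4 (log2 FC 0.09 ± 0.27 SE, adjusted p = 0.913), a value whose sign turned to -0.17 after quantile normalization. At T24 it gave 5.74, 5.31, 6.10 and 6.17, higher in 3 of 4 rabbits (log2 FC 0.70 ± 0.27 SE, adjusted p = 0.0512). This comparison sat on the threshold: adjusted p was 0.045 with the rabbit as a block, 0.0356 with the slide as a block, where the difference was 0.60, and 0.00665 without rabbit 2, where it was 1.07, but 0.816 after quantile normalization, where it was 0.12. Mock cultures of T24 and T4 differed by -0.19 ± 0.27 (SE, adjusted p = 0.727), and the PMA-Ionomycin change differed between the times by 0.61 ± 0.39 (SE, adjusted p = 0.333).

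**Figure D3:**
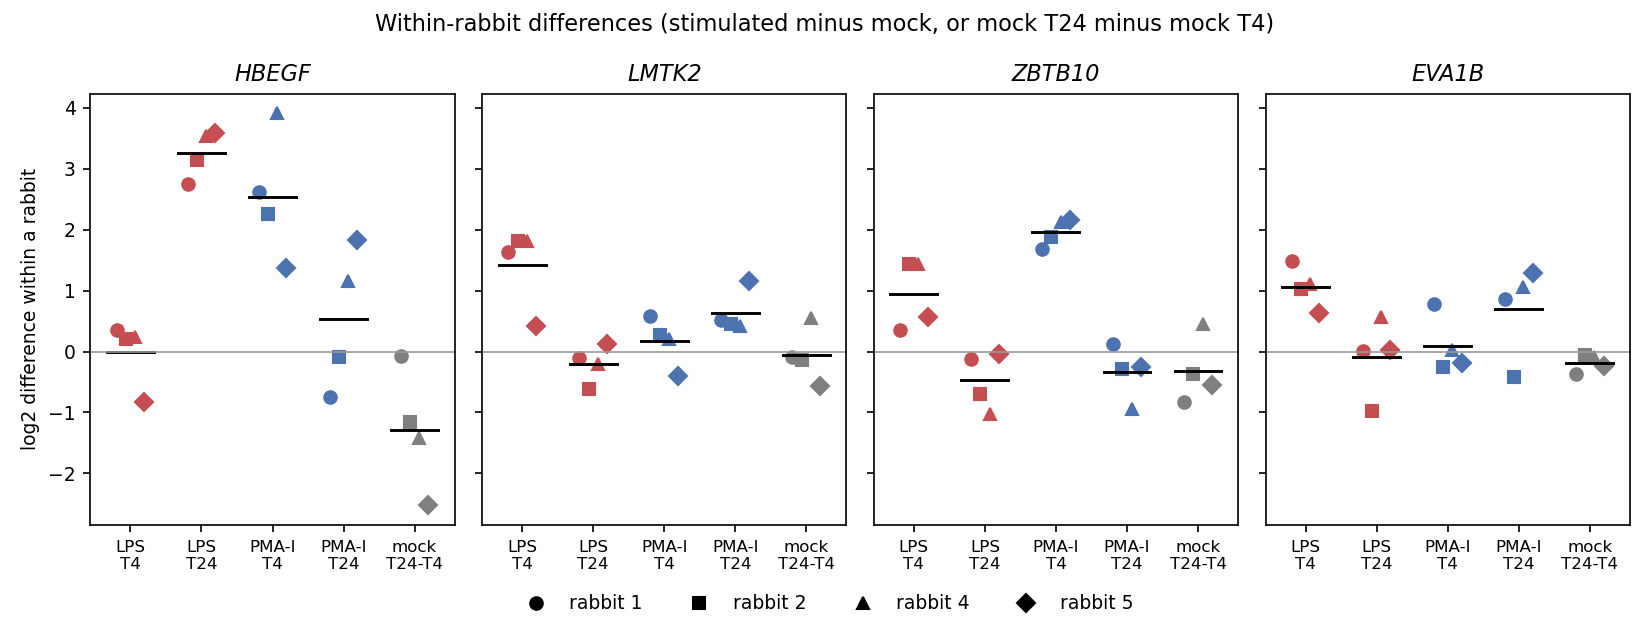
Within-rabbit log2 differences (y axis) for each gene: stimulated minus mock at T4 or T24, and mock at T24 minus mock at T4 (x axis). Points are rabbits and bars are means of 4; rabbit 5 is the lowest point for LMTK2 (0.42) and EVA1B (0.63) with LPS at T4.

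Set against the whole array, 2 of the 4 genes, HBEGF and ZBTB10, were called higher after PMA-Ionomycin at T4, where 13.4% of all genes were called higher and 9.33% lower (limma, adjusted p under 0.05). After PMA-Ionomycin at T24, 0 of 4 were called and 2 of 4 passed at an unadjusted p under 0.05, with 22.1% of all genes called higher and 11.5% lower and 39.2% of all genes at an unadjusted p under 0.05. In mock cultures at T24 against T4, 7.42% of all genes were called higher and 5.13% lower. HBEGF alone of the 4 was past that threshold, and nothing is read from it because its mock level at T24 entered the choice. The difference of the PMA-Ionomycin change between the times was past the threshold for 2 of 4 genes, ZBTB10 and HBEGF, and for 22.5% of all genes. Nothing is read from it for either gene, because mock cultures that entered their choice are part of it. The LPS comparisons, which chose the genes, had far fewer calls over the array: 0.0554% of genes higher and 0.969% lower at T4, and 0.644% higher and 0.582% lower at T24. Pairing cultures by rabbit raised the number of called genes to 1227 from 296 at the early time and to 753 from 354 at the late one. The PMA-Ionomycin and LPS comparisons at one time share the same 4 mock cultures, so their values for a gene are not independent. Other scalings moved the share of higher calls: at T24 after PMA-Ionomycin it was 65.8% of all calls here and 46.3% with the processed signal.

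Of the other EGF family ligands, 5 of 10 were measured. AREG (amphiregulin) and EREG (epiregulin) were well above background on no mock array at T4 and on all 4 PMA-Ionomycin arrays. AREG was at least 8.24-fold higher (mean level 2.26, measured mock mean -0.78, adjusted p = 4.24e-14), and EREG at least 2.02-fold higher (mean level 0.32, measured mock mean -0.69, adjusted p = 2.78e-06). These bounds set a mock array at the higher of its own value and the lowest signal that was well above background there. At T24 AREG remained at least 1.94-fold higher than mock (adjusted p = 1.2e-06), and BTC (betacellulin), well above background on 3 of 4 stimulated arrays, was at least 2.89-fold higher (adjusted p = 4.08e-05). The mean AREG level with PMA-Ionomycin was 2.26 at T4 and 0.003 at T24, and since no mock array was well above background at either time, no exact difference between its changes is given. After LPS 0 of 5 ligands were called by limma at either time, and 0 passed at an unadjusted p under 0.05. Over all genes 13.9% passed that unadjusted threshold after LPS at T4 and 10.8% at T24, the shares against which such counts stand here and for the other lists. Median log2 FC of the 5 ligands after PMA-Ionomycin at T4 was 0.13, against 0.05 over all genes, and it was -0.03 with the processed signal.

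The receptors gave no signal well above background. EGFR, ERBB2, ERBB3 and ERBB4 were well above background on 0 of 4 arrays in every group compared, with group means from -0.76 down to -1.29, so no change could be read for them. ERRFI1 (MIG6), a feedback inhibitor of EGFR, rose after PMA-Ionomycin at T4 (log2 FC 2.53 ± 0.33 SE, adjusted p = 2.74e-06) and was lower in mock cultures at T24 than at T4 (-1.36 ± 0.33 SE, adjusted p = 0.00568). CBL, a ubiquitin ligase for activated receptors, was higher in mock cultures at T24 (1.20 ± 0.26 SE, adjusted p = 0.00238). GRB2, an adaptor, fell after PMA-Ionomycin at T24 (-1.29 ± 0.27 SE, adjusted p = 0.000412). LRIG1, another feedback inhibitor, was higher there (0.58 ± 0.19 SE, adjusted p = 0.0177), a call lost under quantile normalization (0.35, adjusted p = 0.242), normexp (adjusted p = 0.249), the processed signal (adjusted p = 0.314) and the deposited values (adjusted p = 0.0774). Of 9 measured genes of this list, 1 rose and 0 fell after PMA-Ionomycin at T4, against 13.4% and 9.33% of all genes. At T24, 1 rose and 1 fell, against 22.1% and 11.5%. At T4, 1 fell under quantile normalization, normexp, the processed signal and the deposited values. At T24, 0 rose under these 4, and 2 fell with the processed signal and the deposited values. After LPS 0 were called, with 1 at an unadjusted p under 0.05 at T4 and 3 at T24. Pairing by rabbit gave 1 fall after LPS at T4.

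Among the 9 measured sheddases, tetraspanins and inhibitors around HB-EGF, 2 rose and 1 fell after PMA-Ionomycin at T4, where 13.4% of all genes rose and 9.33% fell. The count was 2 and 2 under quantile normalization, normexp, the processed signal and the deposited values, and 3 and 1 with a rabbit block. The inhibitor of metalloproteinases TIMP3 rose (log2 FC 1.33 ± 0.34 SE, adjusted p = 0.00446), as did the tetraspanin CD82 (0.79 ± 0.22 SE, adjusted p = 0.00983), and ADAM10 fell by 0.43 on the log2 scale (adjusted p = 0.0125). At T24, 2 rose and 4 fell, against 22.1% and 11.5% of all genes. ADAM9 (-2.15 ± 0.38 SE, adjusted p = 6.64e-05) and CD9, a tetraspanin partner of membrane HB-EGF (-1.61 ± 0.36 SE, adjusted p = 0.00107), were among them. ADAM19 was well above background on no PMA-Ionomycin array at T24 and was at least 1.80-fold lower there (mean level -0.16 in mock cultures, measured mean -1.06 with PMA-Ionomycin, adjusted p = 1.13e-05). ADAM9 and CD9 had risen in mock cultures between T4 and T24, ADAM9 by 1.52 ± 0.38 (SE, adjusted p = 0.00751) and CD9 by 2.74 ± 0.36 (SE, adjusted p = 1.04e-05). Monocyte markers had the same direction: 10 of 13 fell and 1 rose after PMA-Ionomycin at T24, where their summed signal was 116 to 180 array medians against 590 to 1236 in mock cultures. Their part in the sheddase changes was not tested. After LPS, 0 of 9 were called at either time, with 2 at an unadjusted p under 0.05 at each, and 1 fell at T4 with the rabbit as a block.

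No other LMTK kinase was measured, and the 7 genes measured of that list are partners of LMTK2. CDK5R1 had the largest change, at log2 FC 3.51 ± 0.17 (SE, adjusted p = 1.04e-12) after PMA-Ionomycin at T4 and 3.76 ± 0.17 (SE, adjusted p = 2.17e-13) at T24. PPP1R2 rose by 1.75 ± 0.18 (SE, adjusted p = 1.61e-07) and 1.13 ± 0.18 (SE, adjusted p = 2.84e-05) at these times. The catalytic subunits of protein phosphatase 1 split at T4, with PPP1CC higher (0.69 ± 0.16 SE, adjusted p = 0.00267) and PPP1CA lower (-0.56 ± 0.16 SE, adjusted p = 0.00915). In all, 3 rose and 2 fell at T4, against 13.4% and 9.33% of all genes, and 3 rose and 0 fell at T24, against 22.1% and 11.5%. Medians were -0.11 and 0.34 against 0.05 and 0.03 over all genes. At T4, 3 fell under quantile normalization, normexp, the processed signal and the deposited values. At T24 the median turned to -0.09 with quantile normalization and -0.08 with normexp, and 1 gene fell under these, the processed signal and the deposited values. LPS called 0 of 7 at T4 and at T24 (3 and 1 at an unadjusted p under 0.05), whereas 1 rose at T24 under the processed signal, the deposited values and a rabbit block.

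The ZBTB family held 25 measured genes of 45 beside ZBTB10, and they moved in both directions after PMA-Ionomycin. At T4, 5 of 25 rose and 4 fell, against 13.4% and 9.33% of all genes. ZBTB32, known from activated lymphocytes, rose most (3.80 ± 0.30 SE, adjusted p = 2.65e-09), and ZBTB21 rose by 2.04 ± 0.20 (SE, adjusted p = 7.18e-08), close to ZBTB10. ZBTB18 fell by 1.37 on the log2 scale (adjusted p = 3.69e-07) and ZBTB20 by 1.05 (adjusted p = 0.0231). At T24, 1 rose and 6 fell, against 22.1% and 11.5% of all genes, ZBTB32 being the one that rose (5.02 ± 0.30 SE, adjusted p = 9.44e-12). The change of ZBTB21 differed between the times in the direction of ZBTB10, by -1.59 ± 0.29 (SE, adjusted p = 0.000197). Family medians were 0.08 at T4 (-0.03 with the processed signal) and -0.17 at T24, against 0.05 and 0.03 over all genes, and with the processed signal 10 fell at T24. After LPS the single call was ZBTB48, lower at T4 (-0.94 ± 0.21 SE, adjusted p = 0.0417, in 4 of 4 rabbits), and this call was lost under quantile normalization (adjusted p = 0.0598), normexp (adjusted p = 0.0609), the deposited values (adjusted p = 0.07) and the processed signal (adjusted p = 0.116). With the rabbit as a block 2 family genes fell after LPS at T4.

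Of the 4 Sp factors measured, 0 were called after PMA-Ionomycin at T4 (limma, 0 at an unadjusted p under 0.05), where 13.4% of all genes rose and 9.33% fell. SP1 alone was called at T24, and lower (-0.78 ± 0.16 SE, adjusted p = 0.000546), where 11.5% of all genes fell. With the deposited values 2 fell, and 3 with the processed signal. SP2 was lower in mock cultures at T24 than at T4 (-0.44 ± 0.14 SE, adjusted p = 0.0411), a call lost with the processed signal (adjusted p = 0.0682) and the deposited values (adjusted p = 0.0821). After LPS 0 of 4 were called, with 1 at an unadjusted p under 0.05 at T4 and 0 at T24. The EVA1B relatives EVA1A and EVA1C were called in none of the comparisons (limma), and EVA1C alone passed at an unadjusted p under 0.05, after PMA-Ionomycin at T4, after LPS at T24 and in the difference between times. With the processed signal 1 of these relatives was called lower in the difference between times. Their log2 FC with LPS at T4 was -0.35 ± 0.44 (SE) and 0.09 ± 0.18 (SE), beside 1.06 for EVA1B.

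**Figure D4:**
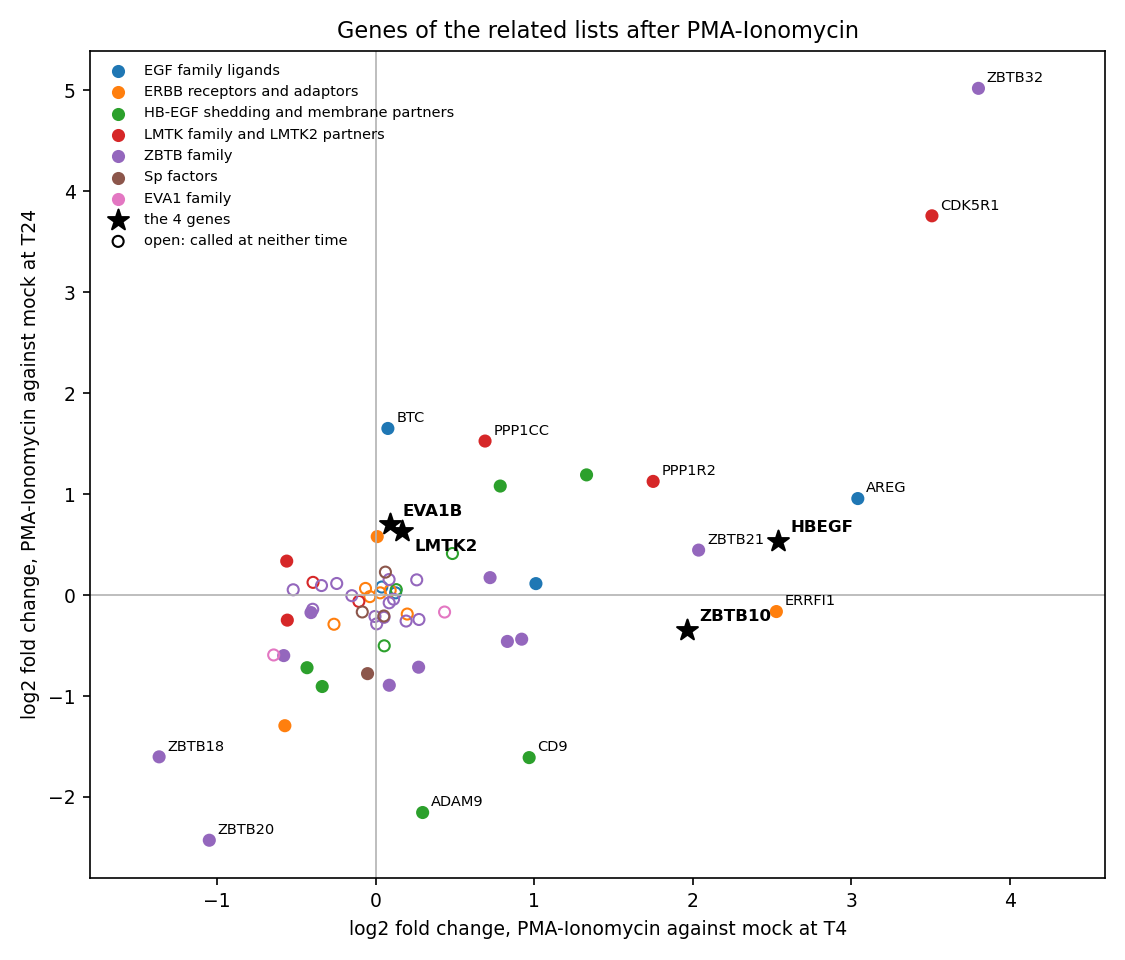
Log2 fold change after PMA-Ionomycin at T4 (x axis) and T24 (y axis) for the measured genes of 7 related lists (coloured points, filled where called at either time) and the 4 genes (stars). HBEGF (2.54 at T4) and ZBTB10 (1.96 at T4) lie low on the T24 axis beside ZBTB21 and ERRFI1, and LMTK2 and EVA1B lie near 0 at T4.

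The genes whose levels were most like each of the 4 over the 24 arrays were ranked by Pearson's r among 6313 other genes with a symbol that were well above background throughout at least 1 group. These correlations are across arrays that share rabbits, slides and scaling, and they are a description. They include the LPS and mock arrays that chose the 4 genes, so a shared peak follows from the ranking and is no finding. For HBEGF they were DUSP6, a phosphatase that switches off ERK (r = 0.95), the cytokine signalling inhibitor SOCS3 (0.90), the gap junction protein GJB2 (0.88), the kinase PLK2 (0.88) and the transcription factor RUNX1 (0.87). For ZBTB10 they included the nucleotidase NT5C3A (0.88), the zinc finger protein HIVEP2 (0.88), the splicing protein SNRNP48 (0.88) and the splicing factor SFPQ (0.87).

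LMTK2 and EVA1B, both picked for a rise with LPS at T4, were each other's closest gene (r = 0.91), although ASB13 was closest to EVA1B after quantile normalization (r = 0.93) and LMTK2 ranked 5. The r between HBEGF and LMTK2 was -0.14 and between ZBTB10 and LMTK2 0.31. Next to LMTK2 came ASB13 (0.84), the testis actin-like gene ACTL7B (0.82), PDZD7 (0.81) and the hair keratin KRT25 (0.80). Next to EVA1B came ASB13 (0.90), TMEM88 (0.84), the calcium-binding protein S100A1 (0.84) and the cofilin phosphatase SSH3 (0.83). ACTL7B and KRT25 had low signals, with group means from -0.67 to 0.06, and PLK2, named for HBEGF, had means from -0.95 to 0.90. The LMTK2 and EVA1B probes had at most 9 bases in a row in common. Mean probe GC content was 60% for EVA1B, PDZD7, TMEM88 and SSH3, 55% for LMTK2 and ACTL7B, and 53.3% for S100A1. It was 45% for ASB13 and KRT25, against a median of 43.3% over all genes. The part of probe sequence in this likeness was not tested.

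**Figure D5:**
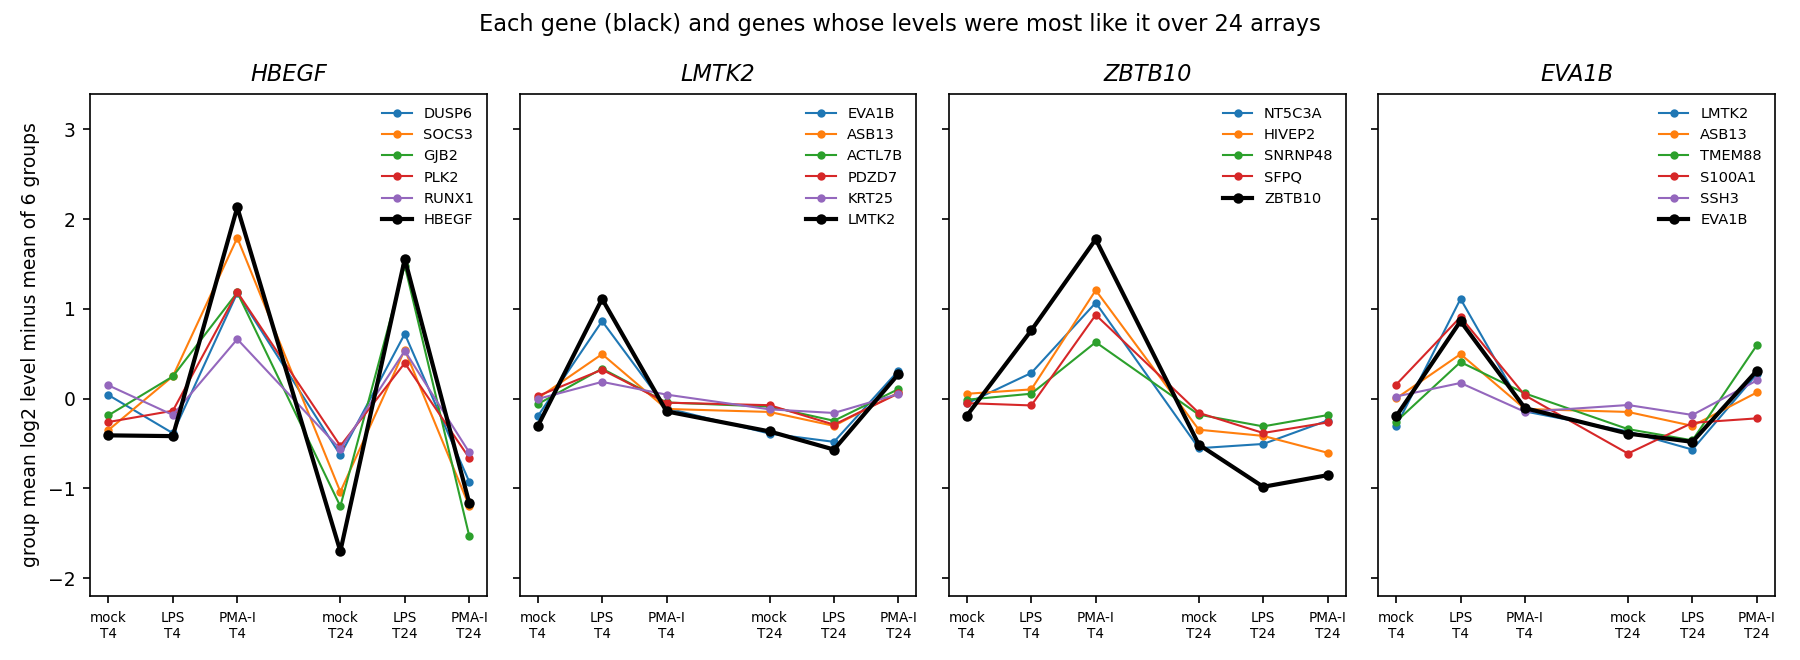
Group means (y axis, log2 level minus the mean of the 6 groups) of each gene in black and 4 or 5 genes of highest Pearson's r to it over 24 arrays in colour, by stimulation and time (x axis). HBEGF and its 5 genes peak with PMA-Ionomycin at T4 and LPS at T24, and LMTK2 and EVA1B (r = 0.91) peak with LPS at T4, as the ranking by r selects.

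Monocyte markers also moved with LPS at T4, when LMTK2, ZBTB10 and EVA1B were high. Of 13 measured, 0 rose and 3 fell (CD14, CSF1R and TYROBP). Of these calls, 1 was left with quantile normalization, with normexp and with the deposited values, and 0 with the processed signal (limma), whereas 4 markers fell with the rabbit as a block. The summed signal was 119 to 187 array medians against 233 to 462 in mock cultures. B cell markers gave 99.1 to 345 with LPS and 254 to 567 in mock cultures, and T cell markers 17.0 to 26.4 and 18.6 to 27.5. Of 6 B cell and 10 T cell markers, 0 were called, with 0 and 4 at an unadjusted p under 0.05, against 13.9% of all genes. Their median log2 FC was -0.07 and 0.07, and 0.14 and 0.20 with the processed signal. With the rabbit as a block, 1 T cell marker fell. After PMA-Ionomycin at T4, when HBEGF and ZBTB10 were high, monocyte markers summed to 94.1 to 160 (0 rose and 5 fell), B cell markers to 21.2 to 46.7 and platelet markers to 5.08 to 11.99, against 19.3 to 47.7 for platelet markers in mock cultures. The part of these cell markers in the changes of the 4 genes was not tested.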

How the data were processed

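Each culture was hybridized to an array of its own, 24 in all on 3 slides of 8. The authors deposited scanner output from Agilent Feature Extraction 10.7.3.1 (per the file headers), whose median, mean, background and processed signals are spot intensities not scaled between arrays. They also deposited log2 values, 1 column per array, that equal the log2 median signal minus the array mean. Here log2 median signals were centred on each array's median, outlier spots left out, spots averaged per probe and probes per gene. Of 42089 probes, 11474 were named through a RefSeq accession, 8942 through a gene number and 439 through the study's table of immune genes. The rest of those named went through names in the array files. A further 20902 matched no symbol and kept their name in the array files, so 1 gene may stand under more than 1 name. In all, 20278 probes belonged to a gene with a symbol, as some named probes led to genes known only by a number. Groups were fitted together with limma 3.58.1 in R 4.3.3 (a mean per group, eBayes, Benjamini-Hochberg over 28885 genes), after the study's methods, and the fit was tested on simulated data. Per the labels, rabbit numbers mark the animals, so cultures were paired: deviations from group means correlated with a median of 0.23 between cultures of 1 rabbit (60 pairs) and -0.08 between rabbits (180 pairs). The number of arrays limits the precision, and p-values describe 4 rabbits with 1 culture each per group. The members and gene lists were chosen with earlier results of these data known. Within lists, the genes named were up to 4 called with the largest changes and any called after LPS, and the 5 likest genes of each member, of which 1 is not reported here. Alternatives were quantile normalization, the processed signal at its 75th percentile, normexp (offset 50), the deposited table, other filters, rabbit or slide as a block, single probes and leaving out each rabbit.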

Additional observations from a re-analysis of the deposited data

Results flagged for a closer look

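Of 44 sets of 4 rabbit values searched for a single distant value, 5 stood out, and chance flags about 1 set in 20. The figure given is the gap to the nearest rabbit as a share of the set's range. Rabbit 5 stood apart in the LPS difference at T4 for HBEGF (0.882) and for LMTK2 (0.871), and in the PMA-Ionomycin difference at T24 for LMTK2 (0.874). Rabbit 1 stood apart in the LMTK2 level of PMA-Ionomycin cultures at T24 (0.926), where the 4 values spanned 2.93 to 3.1. Rabbit 5 stood apart in the ZBTB10 level of LPS cultures at T24 (0.830). The difference between the PMA-Ionomycin changes at T24 and T4 was -2.31 in log2 units for ZBTB10. It is a description because mock values at T4 entered the choice of the gene. For HBEGF it was -2.0, a description because mock values at T24 entered the choice of the gene, and its threshold was not passed without rabbit 1, 2 or 4 or with the processed signal.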

How the results depend on the processing

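The rises of HBEGF and ZBTB10 after PMA-Ionomycin at T4 kept their direction and their call under every alternative tried. The smaller ZBTB10 change at T24, given as a description, kept its direction. Every alternative uses mock cultures at T4, which entered the choice of ZBTB10, so none is independent of that choice. For EVA1B after PMA-Ionomycin at T4, not called, the sign turned with quantile normalization (-0.17), the processed signal (-0.008) and normexp (-0.17), and leaving out a rabbit gave -0.14 to 0.21. For LMTK2 between mock T24 and T4, leaving out a rabbit gave -0.26 to 0.11. After PMA-Ionomycin at T24, EVA1B became called without dim probes (0.70, adjusted p = 0.0355), with only the arrays compared (0.70, adjusted p = 0.043), with the replicate block (0.70, adjusted p = 0.045) and with the slide as a block (0.60, adjusted p = 0.0356), with 0.50 to 1.07 on leaving out a rabbit. LMTK2 became called there with only the arrays compared (0.64, adjusted p = 0.0118) and with the replicate block (0.64, adjusted p = 0.0289), and ZBTB10 with quantile normalization (-0.78) and normexp (-0.76). The HBEGF difference between mock T24 and T4, given as a description, was -1.04 with normexp, -1.29 with only the arrays compared and -2.87 with the processed signal, and leaving out a rabbit gave -1.70 to -0.88. The HBEGF difference between the PMA-Ionomycin changes, also a description, was -1.498 with the processed signal, and leaving out a rabbit gave -2.82 to -1.55. The LPS difference of HBEGF at T24 was 5.05 with the processed signal and 2.84 with normexp. The rabbit block changed no other call of the 4 genes. The cause of these shifts was not tested.

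Calls over all genes after LPS at T4 numbered 296 (5.41% of them higher), and 114 with quantile normalization (21.9% higher), 105 with normexp (25.7% higher), 12 with the processed signal (16.7% higher), 71 with the deposited table, 1227 with the replicate block, 0 with only the arrays compared (3524 at an unadjusted p under 0.05), and 0 to 119 on leaving out a rabbit (2102 to 4146 at an unadjusted p under 0.05). After LPS at T24 they numbered 354, and 47 with only the arrays compared, 753 with the replicate block, 110 without rabbit 2, 86 without rabbit 4 and 612 without rabbit 5. Between mock T24 and T4 they numbered 3624, and 2329, 2272 and 2370 without rabbit 1, 2 or 4. The higher share went from 59.0% to 47.0% at T4 after PMA-Ionomycin and from 59.1% to 48.9% between mock times with the processed signal. It went at T24 after PMA-Ionomycin from 65.8% to 52.8% with quantile normalization, 52.9% with normexp and 51.1% with the deposited table. Of the likest genes named for HBEGF (5), LMTK2 (5), ZBTB10 (4) and EVA1B (5), 3, 3, 4 and 3 stayed among the 5 likest with quantile normalization, and 5, 4, 1 and 2 did once each rabbit's mean was removed.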
